A study of Danio rerio with 6 samples.

Results

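The DNA replication genes are a set of 45 genes whose products license origins, unwind DNA, copy it and restore chromatin behind the fork. A gene belonged to the set when its symbol, looked up from its Ensembl ID with case ignored, equalled one of the 45 names. Of these names 39 matched 40 gene IDs among the 25640 in the count table, since MCM6 matched 2 IDs. The other 6 (orc2, orc4, mcm2, mcm7, pole2 and uhrf1) are not analysed here. The series compares polyadenylated RNA of livers dissected from adult zebrafish (Danio rerio), with 3 libraries of wild-type (WT) fish and 3 of the transgenic genotype lf:Yap. No other allele, agent or closer age is given for either group, and neither the promoter of the transgene nor the number of fish per library is stated in the sources used here. The p-values therefore measure the spread between these libraries, which may be partly technical. Levels are given as CPM, the share of a library's counts on the cpm scale of edgeR, with library sizes scaled by TMM.

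A replication origin is licensed when the origin recognition complex (ORC), with Cdc6 and Cdt1, loads the ring-shaped MCM helicase. The helicase is switched on when Cdc45 and GINS bind it, and polymerases alpha, epsilon and delta then copy the strands with the PCNA clamp, its loader RFC and the single-strand binding protein RPA. Most of these genes are transcribed ahead of S phase under E2F factors, so their transcripts are scarce in resting tissue such as adult liver. Yap is a transcriptional coactivator restrained by Hippo signalling and is known for driving liver growth in mice and zebrafish.

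The libraries held 71581315 to 87543545 gene counts each. YAP1 (ENSDARG00000068401) was read at 22.6, 27.4 and 20.4 CPM in WT and at 443, 386 and 291 CPM in lf:Yap, so it follows the labels. The livers were rich in hepatocyte transcripts, and the 11 hepatocyte markers summed to 73300 to 79600 CPM in WT and 94800 to 96200 CPM in lf:Yap. Among them tfa had a mean of 22400 CPM in WT, against 37500 CPM in lf:Yap, and fabp10a 8770 and 13200 CPM. The median log2 fold change of the 11, lf:Yap over WT, was 0.08. The groups overlapped for 7 of them, while 3 were higher and 1 lower in lf:Yap without overlap. Over all tested genes those shares were 8.84% higher and 8.78% lower. Markers of the exocrine pancreas, an organ that lies within and beside the zebrafish liver, varied widely within both groups. Their 10 gene IDs summed to 14600, 563 and 1330 CPM in WT and to 11600, 53.2 and 16100 CPM in lf:Yap. In dissected tissue, fewer cells that copy their DNA and less replication transcript per such cell cannot be told apart.

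No replication gene was called in either direction between lf:Yap and WT livers. With 3 libraries per group, this does not show that the levels were equal. Of the 40 gene IDs 39 passed the filter on low counts, and 0 of these 39 had an adjusted p under 0.05 (edgeR, quasi-likelihood test), where 0.665% of all 24674 tested genes did (0.555% higher and 0.109% lower). DESeq2 and limma-voom also called 0 members, against 4.33% and 0.754% of all genes. At an unadjusted p under 0.05, each of the 3 tools counted 4 members lower in lf:Yap and 0 higher. The background of edgeR at that level was 5.2% of all genes lower and 6.12% higher, and the 4 members are 10.3% of the 39. That background was not computed for DESeq2 and limma-voom, so their counts have no share beside them. The 4 that edgeR counted were RFC4, MCM10, GINS3 and DNMT1.

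The members leaned toward lower values in lf:Yap as a set. Log2 fold changes of lf:Yap over WT were below 0 for 30 members and above 0 for 9, or 76.9% below 0 against 53.2% of all tested genes. Their median was -0.36, and that of all tested genes was -0.03. The values ran from -2.23 (MCM10) to 0.53 (ORC6). Leaving out WT replicate 1 gave a median of -0.26, and leaving out WT replicate 2 one of -0.48. In the 6 fits that left out 1 library 28 to 33 members lay below 0. These are counts of genes chosen together and carry no test of their own. Macrophage (11 of 12 tested) and germ cell markers (6 of 9) also lay mostly below 0. Erythroid and cholangiocyte markers (5 of 8 each, 62.5%) were nearer the 53.2% of all tested genes. Hepatocyte, neutrophil, T, NK and B cell, exocrine pancreas and endothelial markers did not lie mostly below 0. The germ cell median was -1.04, with 2 lower at an unadjusted edgeR p under 0.05 (22.2%, against 5.2% of all tested genes). DDX4, zp3b and zp2.1 of that list lay above 0, and bmp15 was at -0.03. All 11 germ cell IDs had reads. They summed to 8.91 to 15 CPM in WT and 7.79 to 11.2 CPM in lf:Yap, where the mean was 83.4% of that in WT. The part of these cell types in the members' values was not tested.

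**Figure D1:**
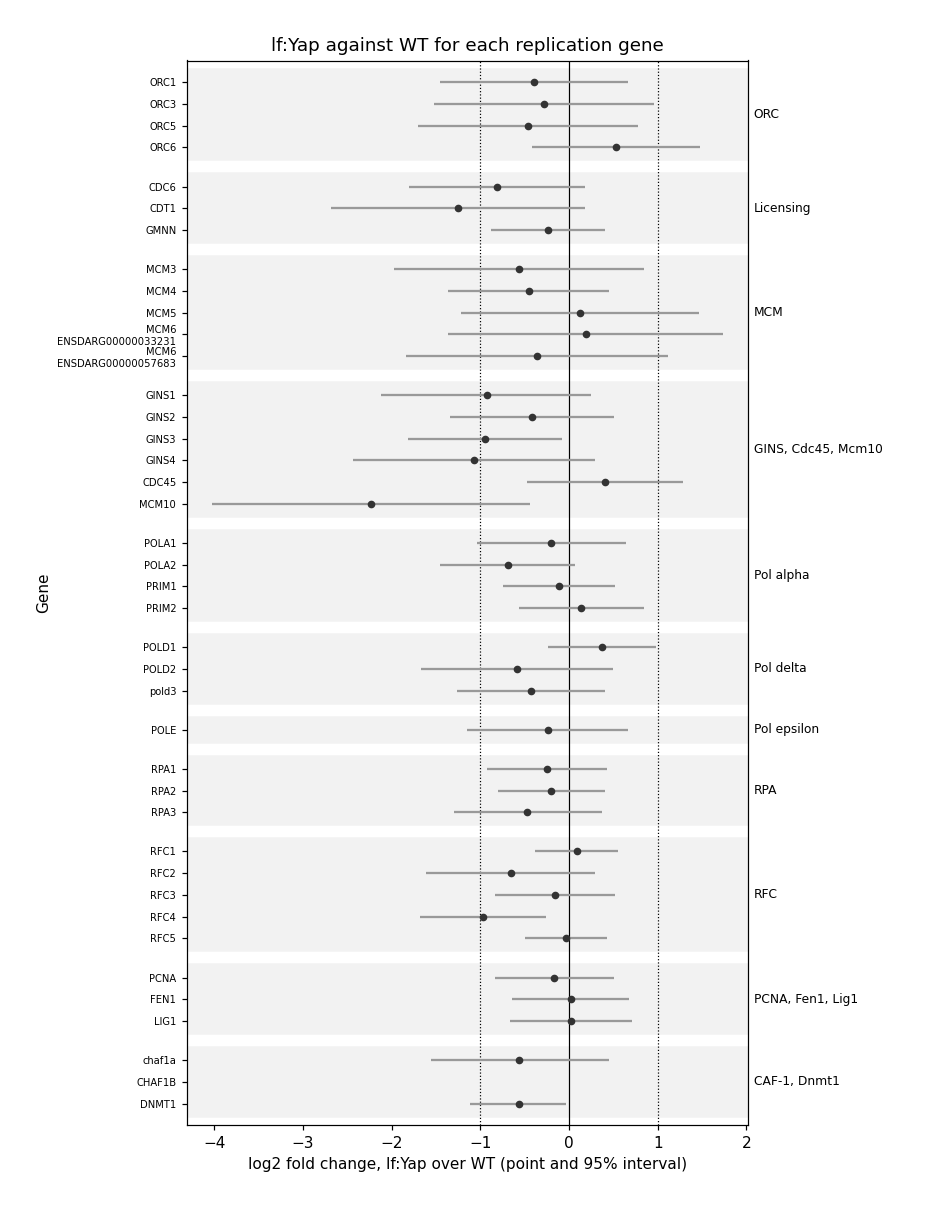
Log2 fold change of lf:Yap over WT (x axis) for each replication gene (y axis), grouped by role, with the point estimate and its 95% interval from edgeR; dotted lines mark a 2-fold difference. Intervals of 4 genes lie below 0 and none lies above 0, and CHAF1B has no point because it was not tested.

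The intervals bound how large a difference could be missed. For 34 of 39 members the 95% interval of the log2 fold change, unadjusted for the number of genes, ended below 1, so that it did not reach a 2-fold higher level in lf:Yap. The same held for 61% of all tested genes. The other 5 members were ORC6, MCM5, both MCM6 IDs and CDC45. At the lower end, the interval of only 14 members began above -1, so that it did not reach a 2-fold lower level. The same held for 13612 of the 24674 tested genes. For 12 members the interval lay within 2-fold in both directions, as it did for 8194 of the 24674 tested genes. Among the 12 were PCNA, FEN1, LIG1, RFC1, RFC3 and RFC5.

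Replication transcripts were read at low counts in these livers. The mean over the 6 libraries was under 5 CPM for 33 of the 39 tested members and under 1 CPM for 14, or 84.6% and 35.9%, where 59.4% and 31% of all tested genes lay below those levels. Counts of a tested member in a library ran from 7 to 1419 reads. The 40 IDs together summed to 108, 104 and 124 CPM in WT and to 92.5, 102 and 89.6 CPM in lf:Yap. Each lf:Yap library thus lay below each WT library, though by a margin of only 102 against 104 CPM. The lf:Yap mean was 84.5% of the WT mean. No background share was computed for such sums, which follow the genes with the most reads.

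**Figure D2:**
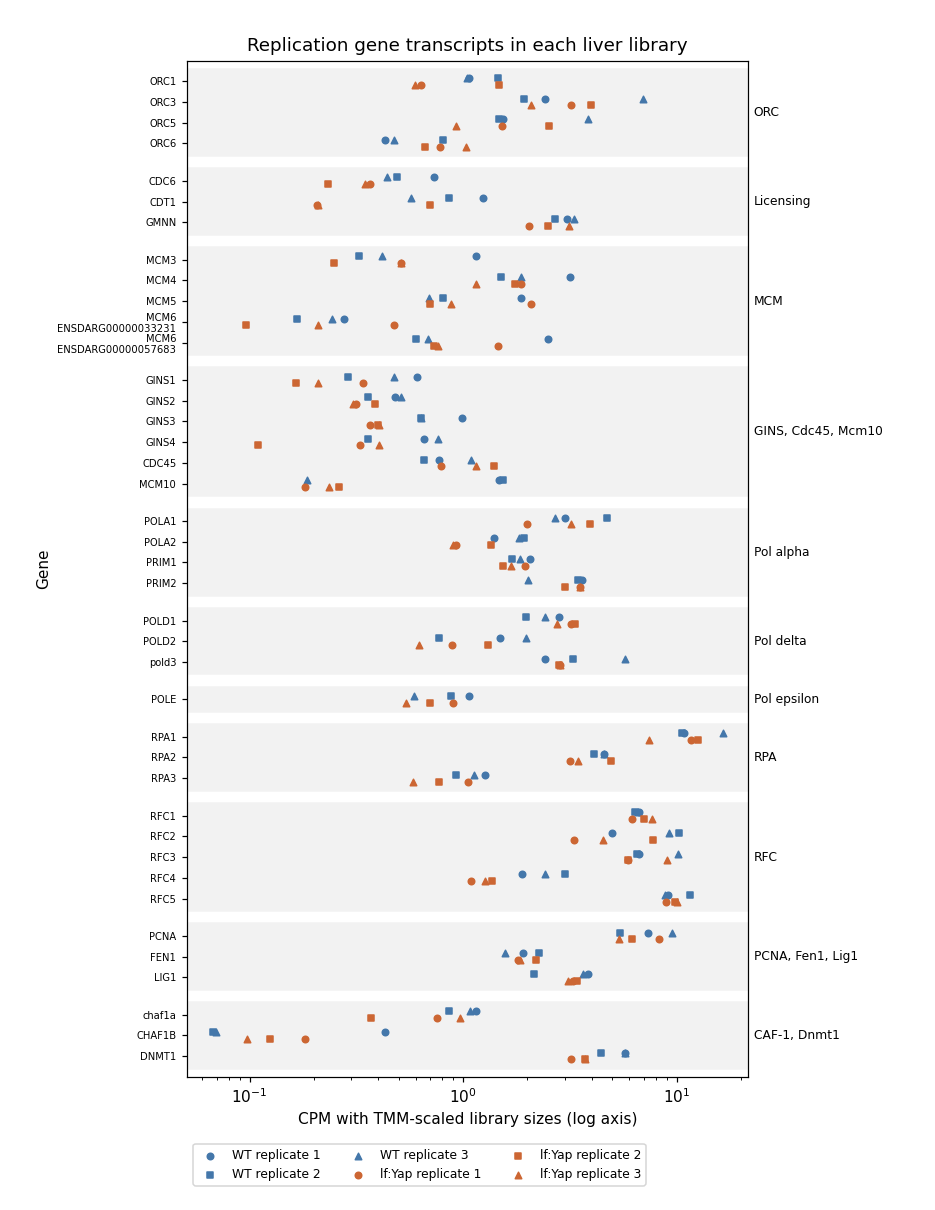
CPM of each replication gene (x axis, log scale) in each of 3 WT (blue) and 3 lf:Yap (orange) libraries, with 1 symbol per replicate number and genes grouped by role. The groups overlap for most genes; the lf:Yap points lie below all WT points for CDC6, GINS3, POLA2, RFC4 and DNMT1.

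The groups overlapped for 34 of the 39 tested members. Of the other members 5 had all lf:Yap libraries below all WT libraries, and 0 had them all above, against 8.78% and 8.84% of all tested genes. Those 5, 12.8% of the members and so near the background share, were CDC6, GINS3, POLA2, RFC4 and DNMT1, which belong to 5 different steps. A WT library held the highest value of 31 members (79.5%, against 55.9% of all genes). WT replicate 1 was the highest for 14 members, WT replicate 3 for 10 and WT replicate 2 for 7.

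The origin recognition complex marks origins, and 4 of its 6 genes were measured. ORC3 (ENSDARG00000008805), a core subunit and the one with the most reads, was at 2.41, 1.92 and 6.93 CPM in WT and at 3.21, 3.97 and 2.09 CPM in lf:Yap. Its values overlapped and WT replicate 3 stood far above the rest; the log2 fold change was -0.28 ± 0.53 (SE; adjusted p = 0.91, edgeR) and 0.50 without that library. ORC5 (ENSDARG00000021579), an ATP-binding subunit, had the same high library at 3.83 CPM, with 1.53 and 1.47 CPM in the other WT libraries and 0.928 to 2.53 CPM in lf:Yap. The sum of the germ cell markers was also highest in WT replicate 3, at 15 CPM over 11 IDs against 7.79 to 11.2 CPM elsewhere. Of the 9 tested germ cell IDs 4 were highest in that library, as were 5344 of the 24674 tested genes. The part of germ cell RNA in the ORC values was not tested. ORC1 (ENSDARG00000039217), the subunit whose level cycles with cell division in mammals, had a mean of 1.18 ± 0.231 CPM in WT, against 0.901 ± 0.496 CPM in lf:Yap (SD of 3 libraries). ORC6 (ENSDARG00000075682), which helps recruit the helicase, was the member with the largest positive value. It was read at 0.429, 0.804 and 0.475 CPM in WT and at 0.779, 0.661 and 1.03 CPM in lf:Yap, so the groups overlapped (log2 fold change 0.53 ± 0.40, SE; adjusted p = 0.715, edgeR).

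The 3 licensing genes all lay below 0. CDT1 (ENSDARG00000051854), the loader of the helicase that is destroyed once S phase starts, was at 1.24, 0.859 and 0.567 CPM in WT and at 0.207, 0.702 and 0.208 CPM in lf:Yap. The groups overlapped through lf:Yap replicate 2 alone, and the log2 fold change was -1.25 ± 0.61 (SE; adjusted p = 0.511, edgeR). CDC6 (ENSDARG00000009942), the ATPase that works with Cdt1, was at 0.731, 0.491 and 0.440 CPM in WT and at 0.365, 0.234 and 0.346 CPM in lf:Yap. All its lf:Yap libraries were lower, and the log2 fold change was -0.81 ± 0.42 (SE; adjusted p = 0.548, edgeR). GMNN (ENSDARG00000035957) encodes geminin, the inhibitor of Cdt1. It was at 3.05, 2.69 and 3.29 CPM in WT and at 2.03, 2.49 and 3.12 CPM in lf:Yap. The groups overlapped, with a log2 fold change of -0.24 ± 0.27 (SE; edgeR adjusted p = 0.827).

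The MCM genes, which encode subunits of the replicative helicase, followed single libraries more than genotype. Their 5 gene IDs summed to 8.96, 3.40 and 3.90 CPM in WT and to 6.39, 3.53 and 3.51 CPM in lf:Yap, so that replicate 1 was high in both groups. MCM3 (ENSDARG00000024204) was at 1.15 CPM in WT replicate 1 and at 0.248 to 0.513 CPM in all other libraries. MCM4 (ENSDARG00000040041) was at 3.18 CPM in that library and at 1.15 to 1.87 CPM in the others. MCM5 (ENSDARG00000019507) was at 1.87, 0.804 and 0.695 CPM in WT and at 2.08, 0.702 and 0.873 CPM in lf:Yap, with both groups spanning the same range.

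The 2 IDs named MCM6 may share reads, so the split between them is uncertain. ENSDARG00000057683 was at 2.5, 0.603 and 0.683 CPM in WT and at 1.45, 0.730 and 0.762 CPM in lf:Yap. ENSDARG00000033231 had only 7 to 39 reads per library, at 0.277, 0.167 and 0.243 CPM in WT and 0.474, 0.0964 and 0.208 CPM in lf:Yap. The log2 fold changes were -0.56 ± 0.60 for MCM3, -0.45 ± 0.38 for MCM4 and 0.12 ± 0.57 for MCM5, with adjusted p-values of 0.813, 0.747 and 0.967 (SE; edgeR). They were -0.36 ± 0.63 for ENSDARG00000057683 and 0.19 ± 0.66 for ENSDARG00000033231, with adjusted p-values of 0.901 and 0.956. None of these passed the test. Without WT replicate 1 the values of MCM3 and of ENSDARG00000057683 were 0.21 and 0.63, in place of -0.56 and -0.36. Summed macrophage markers were at 530, 294 and 224 CPM in WT and at 256, 236 and 424 CPM in lf:Yap. They were thus high in WT replicate 1 and lf:Yap replicate 3 but not in lf:Yap replicate 1. Exocrine pancreas markers were high in replicate 1 of both groups but also in lf:Yap replicate 3. Of the 12 macrophage markers 11 were below 0 in lf:Yap over WT and 0 were at 0 reads; their part in the MCM values was not tested.

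GINS, the 4-subunit ring that joins the helicase with Cdc45, was lower in lf:Yap for each of its genes without any being called. GINS1 (ENSDARG00000007624), GINS2 (ENSDARG00000002304), GINS3 (ENSDARG00000038847) and GINS4 (ENSDARG00000016044) had log2 fold changes of -0.93, -0.42, -0.95 and -1.07, and each stayed below 0 under every alternative that tested it. GINS3 was at 0.983, 0.636 and 0.637 CPM in WT and at 0.365, 0.399 and 0.402 CPM in lf:Yap, without overlap (SE 0.37; adjusted p = 0.399, edgeR). GINS1 had a mean of 0.457 ± 0.158 CPM in WT, against 0.238 ± 0.0915 CPM in lf:Yap, and GINS4 0.592 ± 0.211 and 0.280 ± 0.152 CPM (SD of 3 libraries). CDC45 (ENSDARG00000043720), their partner in the active helicase, lay the other way. It was read at 0.769, 0.659 and 1.09 CPM in WT and at 0.791, 1.40 and 1.15 CPM in lf:Yap (log2 fold change 0.41 ± 0.38, SE; adjusted p = 0.777, edgeR). MCM10 (ENSDARG00000045815), which helps the assembled helicase to start, had the lowest fold change of all members at -2.23 ± 0.76 (SE; adjusted p = 0.33, edgeR). Its WT libraries differed widely. Replicates 1 and 2 were at 1.47 and 1.54 CPM, while replicate 3 was at 0.185 CPM, inside the lf:Yap range of 0.182 to 0.262 CPM.

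**Figure D3:**
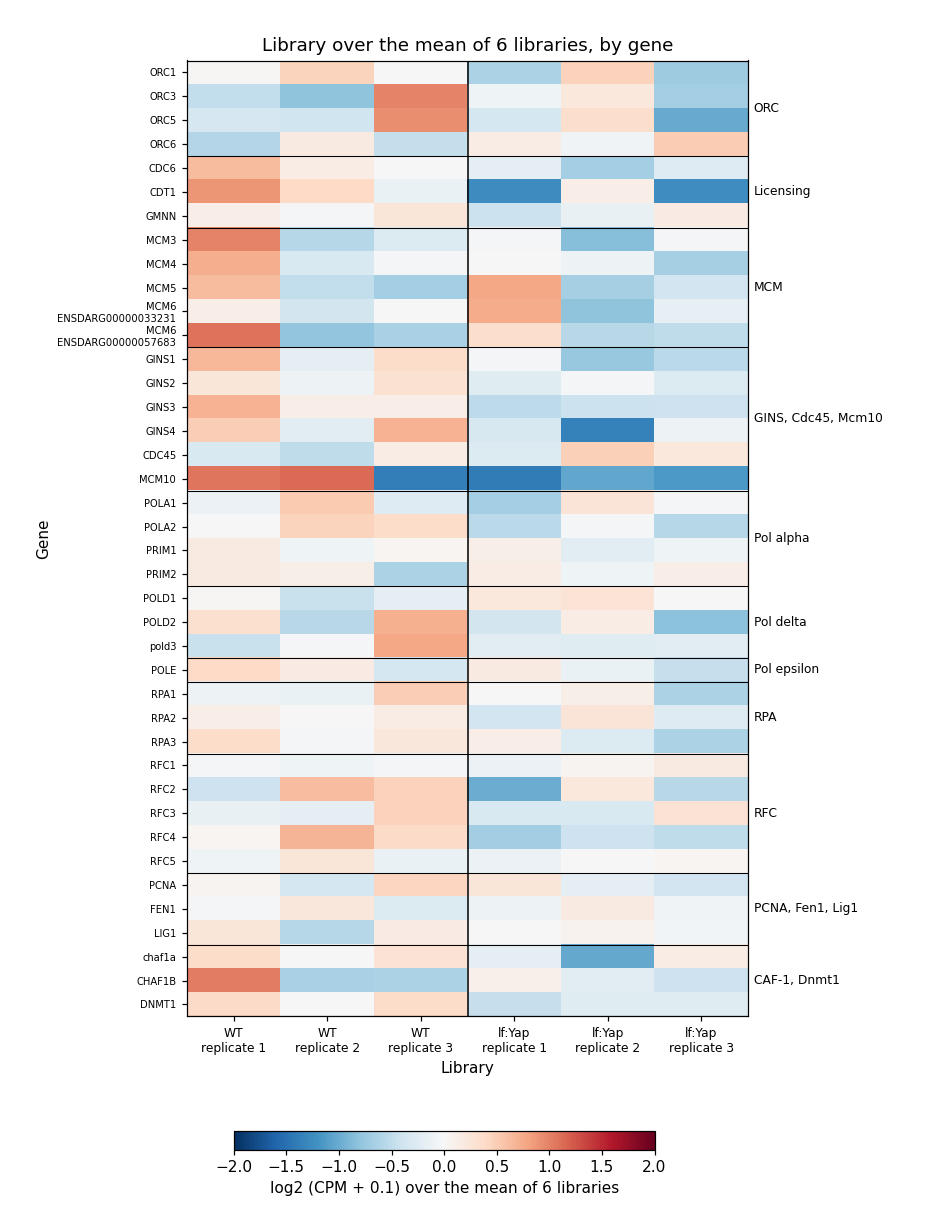
Log2 of CPM + 0.1 in each library over the mean of the 6 libraries (colour) for each replication gene (rows) and library (columns); red is above the mean and blue below. WT replicate 1 is red for MCM3, for MCM6 (ENSDARG00000057683) and for MCM10, WT replicate 3 is red for ORC3 and ORC5, and no column or block of columns is of 1 colour throughout.

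The polymerase genes lay mostly below 0, as the members did, without any being called. Below 0 were 3 of 4 genes of polymerase alpha with primase, 2 of 3 of delta and the 1 of epsilon. DNA polymerase alpha with primase lays down the primers, and its catalytic subunit gene POLA1 (ENSDARG00000045308) was at 3.0, 4.74 and 2.70 CPM in WT and at 2.0, 3.92 and 3.20 CPM in lf:Yap. Replicate 2 was the highest of each group, and the log2 fold change was -0.20 ± 0.36 (SE; edgeR adjusted p = 0.905). POLA2 (ENSDARG00000015070), the accessory subunit, was at 1.39, 1.93 and 1.82 CPM in WT and at 0.925, 1.35 and 0.901 CPM in lf:Yap. The POLA2 groups did not overlap by a margin of 1.35 against 1.39 CPM, and its log2 fold change was -0.69 ± 0.32 (SE; adjusted p = 0.49, edgeR). The primase genes PRIM1 (ENSDARG00000040163) and PRIM2 (ENSDARG00000052721) had log2 fold changes of -0.11 ± 0.27 and 0.14 ± 0.30 (SE).

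Polymerase delta copies the lagging strand. Its catalytic subunit gene POLD1 (ENSDARG00000027689) was at 2.80, 1.98 and 2.41 CPM in WT and at 3.20, 3.35 and 2.74 CPM in lf:Yap, which overlapped only through WT replicate 1 (log2 fold change 0.37 ± 0.26, SE; adjusted p = 0.682, edgeR). Its accessory subunits lay the other way, with log2 fold changes of -0.59 ± 0.46 for POLD2 (ENSDARG00000095046) and -0.43 ± 0.35 for pold3 (ENSDARG00000076169; SE; edgeR adjusted p = 0.726 and 0.737). pold3 was at 2.41, 3.28 and 5.74 CPM in WT against 2.85, 2.80 and 2.83 CPM in lf:Yap, where the libraries were nearly equal. WT replicate 3 was again the highest, and without it the value was -0.02. POLE (ENSDARG00000058533), the catalytic subunit of the leading-strand polymerase epsilon, was at 1.06, 0.882 and 0.591 CPM in WT and at 0.90, 0.702 and 0.54 CPM in lf:Yap. The groups overlapped (log2 fold change -0.24 ± 0.39, SE; edgeR adjusted p = 0.891).

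RPA, the 3-subunit protein that coats single-stranded DNA in replication and repair, lay slightly below 0 for all subunits. RPA1 (ENSDARG00000003938), the large subunit, had the most reads of all members, with 10.8, 10.6 and 16.4 CPM in WT and 11.7, 12.6 and 7.43 CPM in lf:Yap. The groups overlapped, and the log2 fold change was -0.25 ± 0.29 (SE; adjusted p = 0.83, edgeR). RPA2 (ENSDARG00000037188) had a log2 fold change of -0.20 ± 0.26 and RPA3 (ENSDARG00000002613) one of -0.47 ± 0.36 (SE). RPA3 was at 1.26, 0.926 and 1.13 CPM in WT and at 1.05, 0.771 and 0.582 CPM in lf:Yap, which overlapped (edgeR adjusted p = 0.714). In lf:Yap replicate 3 all 3 RPA genes lay below every WT library.

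Within the clamp loader RFC, which opens the PCNA ring, RFC4 had the lowest fold change of the 5 subunits, with RFC2 next to it. RFC4 (ENSDARG00000042458) was at 1.88, 3.01 and 2.41 CPM in WT and at 1.09, 1.36 and 1.26 CPM in lf:Yap. Every lf:Yap library was lower, and the log2 fold change of -0.97 ± 0.30 (SE) came with the lowest adjusted p of all members, 0.282 (edgeR). The value was -1.11 to -0.78 in the fits that left out 1 library. In the RefSeq annotation the RFC4 span overlaps the protein-coding gene sos1, and whether reads there were shared or dropped was not tested. RFC5 (ENSDARG00000035634) was at 9.10, 11.5 and 8.86 CPM in WT and at 8.91, 9.80 and 10 CPM in lf:Yap, and its log2 fold change was -0.03 ± 0.20 (SE; edgeR adjusted p = 0.975). RFC1 (ENSDARG00000054799), the large subunit, differed by 0.09 ± 0.20, and its WT libraries spanned only 6.37 to 6.68 CPM. RFC3 (ENSDARG00000055969) differed by -0.16 ± 0.29 and RFC2 (ENSDARG00000014274) by -0.66 ± 0.40 (log2, SE). RFC2 ranged from 4.97 to 10.3 CPM in WT and from 3.30 to 7.74 CPM in lf:Yap, with replicate 1 the lowest of each group. The value of RFC2 was -1.06 to -0.41 in the fits that left out 1 library. That range holds the RFC4 value of -0.97 from all libraries and overlaps the RFC4 range of -1.11 to -0.78. The difference between RFC4 and the other subunits was not tested.

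PCNA and the enzymes that join Okazaki fragments were at similar levels in both groups. PCNA (ENSDARG00000054155), the sliding clamp and a common proliferation marker, was at 7.31, 5.45 and 9.51 CPM in WT and at 8.30, 6.18 and 5.36 CPM in lf:Yap. Its log2 fold change was -0.17 ± 0.29 (SE; adjusted p = 0.90, edgeR), with a 95% interval of -0.84 to 0.51. FEN1 (ENSDARG00000011404), the flap endonuclease, had a mean of 1.91 ± 0.346 CPM in WT, against 1.94 ± 0.213 CPM in lf:Yap, and the ligase gene LIG1 (ENSDARG00000060041) 3.22 ± 0.925 and 3.26 ± 0.156 CPM (SD of 3 libraries). The intervals of FEN1 and LIG1 were -0.64 to 0.68 and -0.67 to 0.71 on the log2 scale.

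Genes for chromatin assembly and methylation behind the fork were lower in lf:Yap by point estimate. DNMT1 (ENSDARG00000030756) encodes the methyltransferase that copies CpG methylation onto the new strand, a step that zebrafish liver outgrowth is known to need. It was at 5.76, 4.40 and 5.70 CPM in WT and at 3.19, 3.73 and 3.73 CPM in lf:Yap, without overlap (log2 fold change -0.57 ± 0.23, SE; adjusted p = 0.412, edgeR). Its value was -0.69 to -0.49 in the fits that left out 1 library. chaf1a (ENSDARG00000062152), the large subunit of the histone chaperone CAF-1, had a mean of 1.03 ± 0.150 CPM in WT, against 0.699 ± 0.303 CPM in lf:Yap (SD of 3 libraries; log2 fold change -0.56 ± 0.43, SE). CHAF1B (ENSDARG00000056473), the middle subunit, was the 1 ID that the filter removed. It had 34, 6 and 6 reads in WT and 15, 9 and 7 reads in lf:Yap.

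Summed by role, the lf:Yap mean was below the WT mean for every complex, by very different margins. It was 62.2% of the WT mean for GINS with Cdc45 and Mcm10, 67.4% for the chromatin genes and 72.7% for the licensing genes. For RFC, ORC, MCM and RPA it was 86.2%, 83.2%, 82.5% and 83.9%, and for polymerases alpha and delta and for the PCNA group 90.9%, 90%, and 94.2%. Of these sums the licensing, GINS and chromatin sums had all lf:Yap libraries below all WT libraries. Gene by gene, that held for 1 of 3 licensing genes, 1 of 6 in the GINS group and 1 of 2 tested chromatin genes. These shares are 33.3%, 16.7% and 50%, against 8.78% of all tested genes, but each rests on 1 gene. No background share was computed for sums, and the GINS sum was not computed without MCM10. A sum follows the genes with the most reads: within the GINS group MCM10 had a mean of 1.07 CPM in WT, through 2 of its 3 libraries, and 0.227 CPM in lf:Yap.

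**Figure D4:**
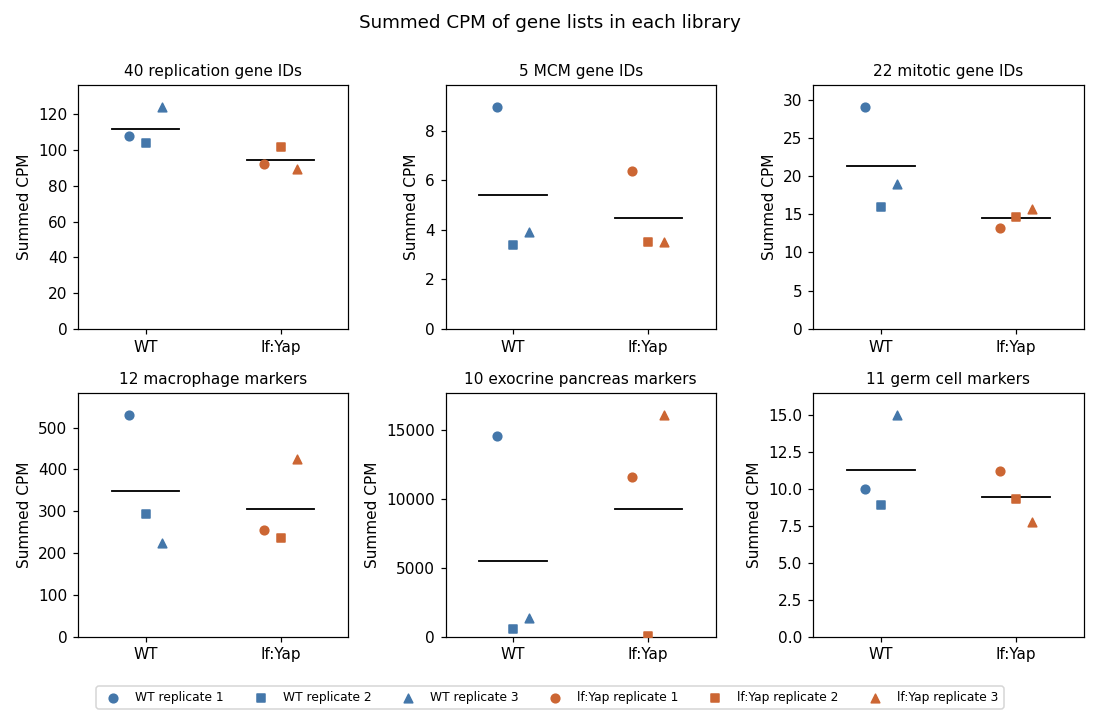
Summed CPM (y axes) of 6 gene lists in each WT (blue) and lf:Yap (orange) library, with 1 symbol per replicate number and a line at the mean of each group. The replication sum runs from 104 to 124 CPM in WT and from 89.6 to 102 CPM in lf:Yap, while the MCM, mitotic and macrophage sums are highest in WT replicate 1 and the germ cell sum in WT replicate 3.

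Other genes of the replication fork and of origins lay on both sides of 0. No symbol matched ticrr, donson, clspn, atad5b or slbp of this list. Of 30 gene IDs, all tested, 17 were below 0 and 13 above, with a median log2 fold change of -0.14. edgeR called 0 of them, DESeq2 2 and limma-voom 1, against 0.665%, 4.33% and 0.754% of all genes. At an unadjusted edgeR p under 0.05, 3 were higher and 1 was lower, against 6.12% and 5.2% of all genes. All lf:Yap libraries were below all WT libraries for 4 of the 30 (13.3%, against 12.8% of the members and 8.78% of all tested genes). They were all above for 3 of the 30, against 8.84% of all tested genes. A WT library was the highest for 73.3%, against 79.5% of the members and 55.9% of all tested genes. The difference between these genes and the members was not tested. The 3 with the lowest p were all higher in lf:Yap, and none of them overlapped. DTL (ENSDARG00000023002), the substrate receptor that marks Cdt1 for destruction on PCNA-bound DNA, was at 2.02, 1.0 and 0.533 CPM in WT and at 10.8, 9.35 and 5.94 CPM in lf:Yap. Its log2 fold change was 2.87 ± 0.52 (SE), with an adjusted p of 0.0796 in edgeR, 3.86e-06 in DESeq2 and 0.0461 in limma-voom. DSCC1 (ENSDARG00000019907), of an alternative clamp loader used in sister chromatid cohesion, was at 0.618, 0.257 and 0.185 CPM in WT and at 1.42, 1.25 and 1.12 CPM in lf:Yap (edgeR gave an adjusted p of 0.224 and DESeq2 one of 0.0263). WDHD1 (ENSDARG00000015998), which ties polymerase alpha to the helicase, had a mean of 117 ± 15.7 CPM in WT, against 215 ± 67.7 CPM in lf:Yap (SD of 3 libraries, adjusted p = 0.292, edgeR). It had 8902 to 19119 reads per library. Overlap with other genes was looked up for the members only, so whether these reads include another transcript was not tested.

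The measured G1/S regulators, which decide on entry into S phase, were split evenly by sign. No symbol matched e2f1, e2f4, ccne1, ccne2, ccnd1 or cdc25a, so these are not analysed. The list mixes genes that promote this entry with genes that restrain it, so its signs give no direction for the step. Of 25 tested IDs 13 lay above 0 and 12 below, with a median of 0.02. At an unadjusted edgeR p under 0.05, 2 were higher and 2 lower, against 6.12% and 5.2% of all tested genes. Of these IDs 0 were called by edgeR and limma-voom and 2 by DESeq2, which called 4.33% of all genes. tfdp2 (ENSDARG00000042835), a partner of E2F factors, was at 6.28, 5.88 and 6.02 CPM in WT and at 12.2, 13.3 and 10.7 CPM in lf:Yap. Both groups were tight, and its log2 fold change was 0.99 ± 0.19 (SE; edgeR gave an adjusted p of 0.094 and DESeq2 one of 0.000389). RBL1 (ENSDARG00000008141), a pocket protein that represses E2F targets, was at 5.16, 5.80 and 4.86 CPM in WT and at 3.32, 3.22 and 3.52 CPM in lf:Yap (adjusted p = 0.307, edgeR). Of 2 IDs named CDKN1B, the cyclin kinase inhibitor p27, ENSDARG00000054271 had a log2 fold change of 1.24 ± 0.35 (SE; edgeR gave an adjusted p of 0.242 and DESeq2 one of 0.0442) and ENSDARG00000029018 one of -0.44 ± 0.23.

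Mitotic genes, the list most like the members in role, lay mostly in the same direction. No symbol matched cdc20, incenp or ube2c of this list. Of 22 tested IDs 17 were below 0, or 77.3% against 76.9% of the replication members, and the median was -0.61. At an unadjusted edgeR p under 0.05, 3 were lower (13.6%) and 0 higher, against 5.2% and 6.12% of all tested genes. All 3 tools called 0, where edgeR, DESeq2 and limma-voom called 0.665%, 4.33% and 0.754% of all genes. WT replicate 1 held the highest value for 12 of the 22, and without that library the median was -0.32. Without WT replicate 2 the median was -0.818. All lf:Yap libraries were below all WT libraries for 4 of the 22 and above for 3, against 8.78% and 8.84% of all tested genes. The 3 higher were CCNB2, bub1ba and nuf2, with log2 fold changes of 0.99, 0.50 and 0.66. The largest positive value was that of aurka (1.24), whose groups overlapped. plk1 (ENSDARG00000058471), a mitotic kinase, was at 1.98, 1.44 and 1.22 CPM in WT and at 0.414, 0.785 and 0.665 CPM in lf:Yap, without overlap (log2 fold change -1.31 ± 0.39, SE; edgeR adjusted p = 0.253). kif11 (ENSDARG00000010948), a spindle motor, and cdca8 (ENSDARG00000043137), of the chromosomal passenger complex, had log2 fold changes of -1.64 ± 0.50 and -1.12 ± 0.48 (SE; adjusted p = 0.272 and 0.44, edgeR). The same libraries carry both lists, so their shared direction is not a second measurement.

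Summed exocrine pancreas markers parted the libraries across genotype, at a level chosen after the data were seen. The members' values on each side are given as description only. Among WT replicate 1 and lf:Yap replicates 1 and 3, which held over 5000 summed CPM of the exocrine pancreas markers, 30 of 39 members were lower in lf:Yap, with a median log2 ratio of -0.34 (0.03 for all tested genes). Among the 3 libraries below that level, 27 of 39 were lower, with a median of -0.14 (-0.07 for all tested genes). The edgeR fit with this split as a block, chosen after the data were seen, put the members' median at -0.27 with 0 called. Each side holds only 1 library of 1 of the groups, so neither value has a replicate check. The part of pancreatic RNA in the members' values was not tested.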

How the data were processed

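Raw counts (whole reads assigned to each Ensembl gene ID in each library) are used as the authors deposited them. STAR 2.3.0e and HTSeq 0.6.0 are named per the submitters' processing notes; genome build, annotation and strand setting were not given in the sources used here. In the RefSeq annotation GRCz12tu, 15 of the 39 matched members have a span that overlaps another gene, so reads there may be shared or dropped. Transcript lengths were not used here, so where CPM or reads of different genes are set side by side, they are not corrected for length.

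Symbols came from a table pairing IDs with names, which held 17999 of the 25640 IDs; where a pathway or marker name ended in a paralog letter and had no match, the symbol without that letter was used. The main test was the two-sided quasi-likelihood F test of edgeR 4.0.16 (R 4.3.3) on genotype. It followed filterByExpr, which left 24674 genes, TMM scaling (factors 0.939 to 1.108) and robust dispersions, and p-values were Benjamini-Hochberg adjusted over all tested genes at 0.05. The SE was the log2 fold change over the square root of F, and intervals used the degrees of freedom of the test. The alternatives were DESeq2 1.42.0, limma-voom (limma 3.58.1), other scalings and filters, a replicate block and leaving out each library; a pancreas block was chosen after seeing the data. The procedure was tested on simulated data, where it recovered most of the largest changes and missed small ones, 2-fold changes among them. A gene without a call may therefore still differ between the groups. Recovery for genes with a mean under 1 CPM, as 14 of the 39 tested members had, was not tested. Libraries of a group differed far beyond counting noise (chi-square over degrees of freedom 201 to 359), and all 6 were kept as separate libraries; this does not show that they came from separate fish. Library totals were 71581315 to 87543545 counts, and intervals of levels were not computed.

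Every measured member is named with values. Full statistics went to the member of each role with the lowest p, the one with the most reads, the MCM genes, PCNA and DNMT1, and 3 genes with the lowest p were described from each pathway list. The members and lists were chosen with earlier results of these data known, so no set test and no p adjusted over the list is given.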

Additional observations from a re-analysis of the deposited data

How the results depend on the processing

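All 39 tested members stayed without a call in each of the 14 alternatives that tested them. Calls over all genes were also few, from 17 with the replicate block to 1063 (4.33%) with DESeq2. The count of 0 therefore says little about how stable the members are. Of 532 recomputed fold changes 502 kept their direction and 30 reversed, and 25 members never reversed (22 below 0 and 3 above). For the reversals the cause was not tested. The members' median of -0.36 became -0.53 with library size only, -0.261 with limma-voom, -0.254 among the 25 members with at least 1 CPM in 3 libraries, and -0.257 with the replicate block; it ran from -0.478 to -0.249 when 1 library was left out. Library size only also moved the median of all genes from -0.03 to -0.17; 35 members were then below 0 and 29 below the median of all genes.

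The 4 members lower at an unadjusted p under 0.05 became 2 with the 1 CPM filter, 2 with the replicate block and 1 to 5 without 1 library. Over all genes the 164 calls became 1063 with DESeq2, 17 with the replicate block, 105 with the pancreas block and 32 to 94 without 1 library. Same-numbered libraries did not deviate together (correlations 0.1485, 0.1691 and -0.2991), so the replicate block rests on a shared number alone.

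Of the other fork genes DESeq2 called 2 and limma-voom 1; those lower at an unadjusted p under 0.05, 1 in the report, became 2 with library size only, 2 with DESeq2, 0 with the replicate block, 0 with the pancreas block and 0 to 4 without 1 library. Of the G1/S regulators DESeq2 called 2; those lower became 1 with the 1 CPM filter, 1 with the replicate block and 1 to 2 without 1 library, and those higher 2 to 4 without 1 library. The G1/S median was -0.12 with library size only and -0.203 to 0.106 without 1 library. Mitotic genes lower became 1 with the 1 CPM filter and 2 to 5 without 1 library, and those higher 1 with DESeq2, 1 with the pancreas block and 0 to 1 without 1 library. The members' median level against the mean of 6 libraries, with library size only, was 0.28 in WT replicate 1, -0.19 in lf:Yap replicate 2 and -0.35 in lf:Yap replicate 3 (log2).

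Library size only reversed MCM5 (-0.04), PRIM2 (-0.01), RFC1 (-0.05), FEN1 (-0.12) and LIG1 (-0.12). The pancreas block reversed MCM5 (-0.22), MCM6 ENSDARG00000033231 (-0.34) and LIG1 (-0.02) and put RFC5 at 0.0. MCM6 ENSDARG00000033231 was -0.02 with limma-voom and -0.05 with the replicate block. Without 1 library these ran across 0: ORC3 (-0.58 to 0.50), ORC5 (-0.89 to 0.14), MCM3 (-0.89 to 0.21), MCM5 (-0.51 to 0.72), MCM6 ENSDARG00000033231 (-0.58 to 0.58), MCM6 ENSDARG00000057683 (-0.75 to 0.63), POLA1 (-0.42 to 0.10), PRIM2 (-0.10 to 0.30), RFC3 (-0.39 to 0.07), RFC5 (-0.11 to 0.09), PCNA (-0.36 to 0.04), FEN1 (-0.11 to 0.16) and LIG1 (-0.20 to 0.19).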
